A study of Rattus norvegicus with 36 samples.

Results

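The transcripts described here are markers of Kupffer cells and other macrophages, measured in rat liver after exposure to the brominated flame retardant hexabromocyclododecane (HBCD). They were taken as all probe sets that the array's platform annotation assigns to Clec4f, Cd5l, Cd163, Lyz2, Marco, Cd68, Csf1r, C1qa, C1qb or C1qc. Of these 10 genes, 9 were measured, by 10 probe sets, among 14217 gene symbols on the array. Cd5l had 2 probe sets, each other gene had 1, and Marco had none under its symbol, so its level was not analysed here.

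Male Harlan Sprague Dawley rats, 7 weeks old at the start, received HBCD by oral gavage in corn oil for 5 consecutive days, and liver was taken 1 day after the last dose. One group received corn oil vehicle alone (0 mg/kg), and the others HBCD at 641, 64.1, 6.41, 0.641 and 0.06 mg/kg, with 6 arrays in each and 36 in all. Every group shared the vehicle, the dosing volume of 5 ml/kg, the diet and the tissue, which was what remained of the left liver lobe. Arrays are named here by dose and by the replicate number in the labels. The labels number the arrays without tying each to its own rat, and p-values here refer to the spread between arrays, part of which may be technical. The value of a probe set is a level on the log2 scale, on which equal steps are equal fold changes.

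Kupffer cells are the resident macrophages of the liver and line its sinusoids, where they take up particles, bacteria and aged red cells from portal blood. Rodent Kupffer cells carry the lectin encoded by Clec4f and secrete the lipid-associated protein encoded by Cd5l, depend for survival on the growth factor receptor encoded by Csf1r, and make the complement component C1q. Markers such as Cd68 and Lyz2 are shared with other macrophages, and Lyz2 also with monocytes and neutrophils, so a whole-liver level of these transcripts mixes several cell types.

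The regions upstream of 5 of these genes are shown because the results turn on how far the genes moved together: Clec4f and Cd68, and the neighbouring C1qa and C1qb, followed one another closely from array to array, and Lyz2 did not. Each is the run of 250 bases before the annotated transcript start, read 5′ to 3′ on the strand of the gene, from RefSeq's annotation of assembly GRCr8. They lie on the minus strand at chr4:117696408-117696657 (Clec4f), chr5:154419934-154420183 (C1qa), chr5:154407828-154408077 (C1qb), chr10:54882442-54882691 (Cd68) and chr7:54798012-54798261 (Lyz2). Capitals mark matches to the motifs named in the next paragraph.
Clec4f: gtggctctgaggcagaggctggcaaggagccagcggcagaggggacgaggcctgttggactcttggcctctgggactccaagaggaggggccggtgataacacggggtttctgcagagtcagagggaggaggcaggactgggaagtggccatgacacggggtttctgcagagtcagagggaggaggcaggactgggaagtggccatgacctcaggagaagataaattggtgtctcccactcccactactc
C1qa: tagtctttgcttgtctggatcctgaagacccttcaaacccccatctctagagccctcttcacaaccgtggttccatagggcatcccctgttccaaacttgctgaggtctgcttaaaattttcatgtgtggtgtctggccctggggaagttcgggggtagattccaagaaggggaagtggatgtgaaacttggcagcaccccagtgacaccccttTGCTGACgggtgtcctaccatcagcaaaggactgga
C1qb: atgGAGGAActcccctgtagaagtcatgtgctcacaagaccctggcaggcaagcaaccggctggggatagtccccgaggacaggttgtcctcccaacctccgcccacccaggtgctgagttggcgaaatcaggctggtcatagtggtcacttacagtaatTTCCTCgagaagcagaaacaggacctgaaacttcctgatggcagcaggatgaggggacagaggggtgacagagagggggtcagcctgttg
Cd68: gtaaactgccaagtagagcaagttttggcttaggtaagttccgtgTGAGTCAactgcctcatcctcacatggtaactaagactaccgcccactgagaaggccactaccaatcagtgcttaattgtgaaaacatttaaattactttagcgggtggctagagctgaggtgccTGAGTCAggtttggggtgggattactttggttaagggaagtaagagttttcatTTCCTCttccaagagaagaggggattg
Lyz2: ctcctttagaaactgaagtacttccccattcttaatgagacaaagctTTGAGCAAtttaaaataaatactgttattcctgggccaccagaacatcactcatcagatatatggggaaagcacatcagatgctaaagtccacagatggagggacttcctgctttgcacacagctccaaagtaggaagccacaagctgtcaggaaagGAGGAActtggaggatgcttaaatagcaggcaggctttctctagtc

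Motifs of factors known from myeloid cells were searched on both strands in the promoter table, which held 33469 promoters and 9 of the 10 genes. C1qc had no entry there, whereas Marco was included. The Maf-type motif TGCTGAC was in 3.53% of all promoters and in that of C1qa, from 36 to 30 bases before the start. The AP-1-type motif TGANTCA, which reads alike on both strands, was in 6.34% of all promoters and in that of Cd68 at 2 places, 205 and 80 bases before the start. The C/EBP-type motif TTGCNNAA was in 9.22% of all promoters and in that of Lyz2, on the opposite strand, 203 bases before the start. The PU.1-type motif GAGGAAGT was in 2.04% of all promoters and in 0 of the 9. Its first 6 letters, GAGGAA, a search added after the data were seen, were in 23.3% of all promoters and in 6 of the 9, namely Cd5l, C1qb, Lyz2, Cd68, Marco and Csf1r. No marked motif lay in the Clec4f region, which instead holds a run of 54 bases that is repeated exactly in tandem, the second copy beginning 97 bases before the start. C1qb, C1qc and C1qa lie in that order with 0 other annotated genes between them. These matches describe letters only and say nothing of binding.

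The defining genes of hepatocytes were bright on these liver arrays, with a median level of 13.29 over the 11 measured. Arrays of the same group correlated at 0.991 to 0.997 across probe sets, and no pair was identical. Against array medians between 4.83 and 4.90, the mean level over all arrays was 10.01 for Clec4f, 9.13 for the brighter Cd5l probe set, 6.63 for Cd163, 10.13 for Lyz2, 8.03 for Cd68, 7.49 for Csf1r, 9.53 for C1qa, 9.07 for C1qb and 8.84 for C1qc. The second Cd5l probe set, at 3.75, lay below every array median and may be near the background. These levels show that the macrophage transcripts were measurable in the tissue, and they do not rank the genes, since probe sets differ in brightness.

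Clec4f, the lectin gene that is largely restricted to Kupffer cells in rodents, stayed between 10.11 and 10.54 on the 6 vehicle arrays, with a median of 10.17 and a mean of 10.24 ± 0.17 (SD, n = 6). At 64.1 mg/kg its level was 10.10, 9.28, 9.07, 9.30, 10.09 and 9.95 on replicates 1 to 6, a mean of 9.63 ± 0.47 (SD, n = 6). All 6 arrays at that dose lay below every vehicle array, but replicates 1, 5 and 6 only slightly, and replicates 2, 3 and 4 formed a separate low set with a gap of 0.65 above it. In whole tissue, fewer macrophages and less of the transcript per macrophage cannot be told apart, here or in any result that follows. Clec4f ran from 9.81 through a median of 10.08 to 10.34, a mean of 10.07 ± 0.18 (SD, n = 6) at 641 mg/kg, the highest dose, and overlapped the vehicle arrays.

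At the lower doses Clec4f was spread more widely than in vehicle, without a shift of the whole group. Its lowest, median and highest levels were 9.44, 10.13 and 10.27 at 0.06 mg/kg, 9.30, 10.23 and 10.54 at 0.641 mg/kg, and 9.17, 10.15 and 10.62 at 6.41 mg/kg. In each of these groups the median stayed near that of vehicle while 1 or 2 arrays lay far lower, namely replicate 3 at 0.06 mg/kg, replicates 4 and 5 at 0.641 mg/kg and replicate 2 at 6.41 mg/kg. The group means in falling order were those of vehicle, 641, 6.41, 0.06, 0.641 and 64.1 mg/kg, and no neighbours in that order differed by more than their SDs.

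**Figure D1:**
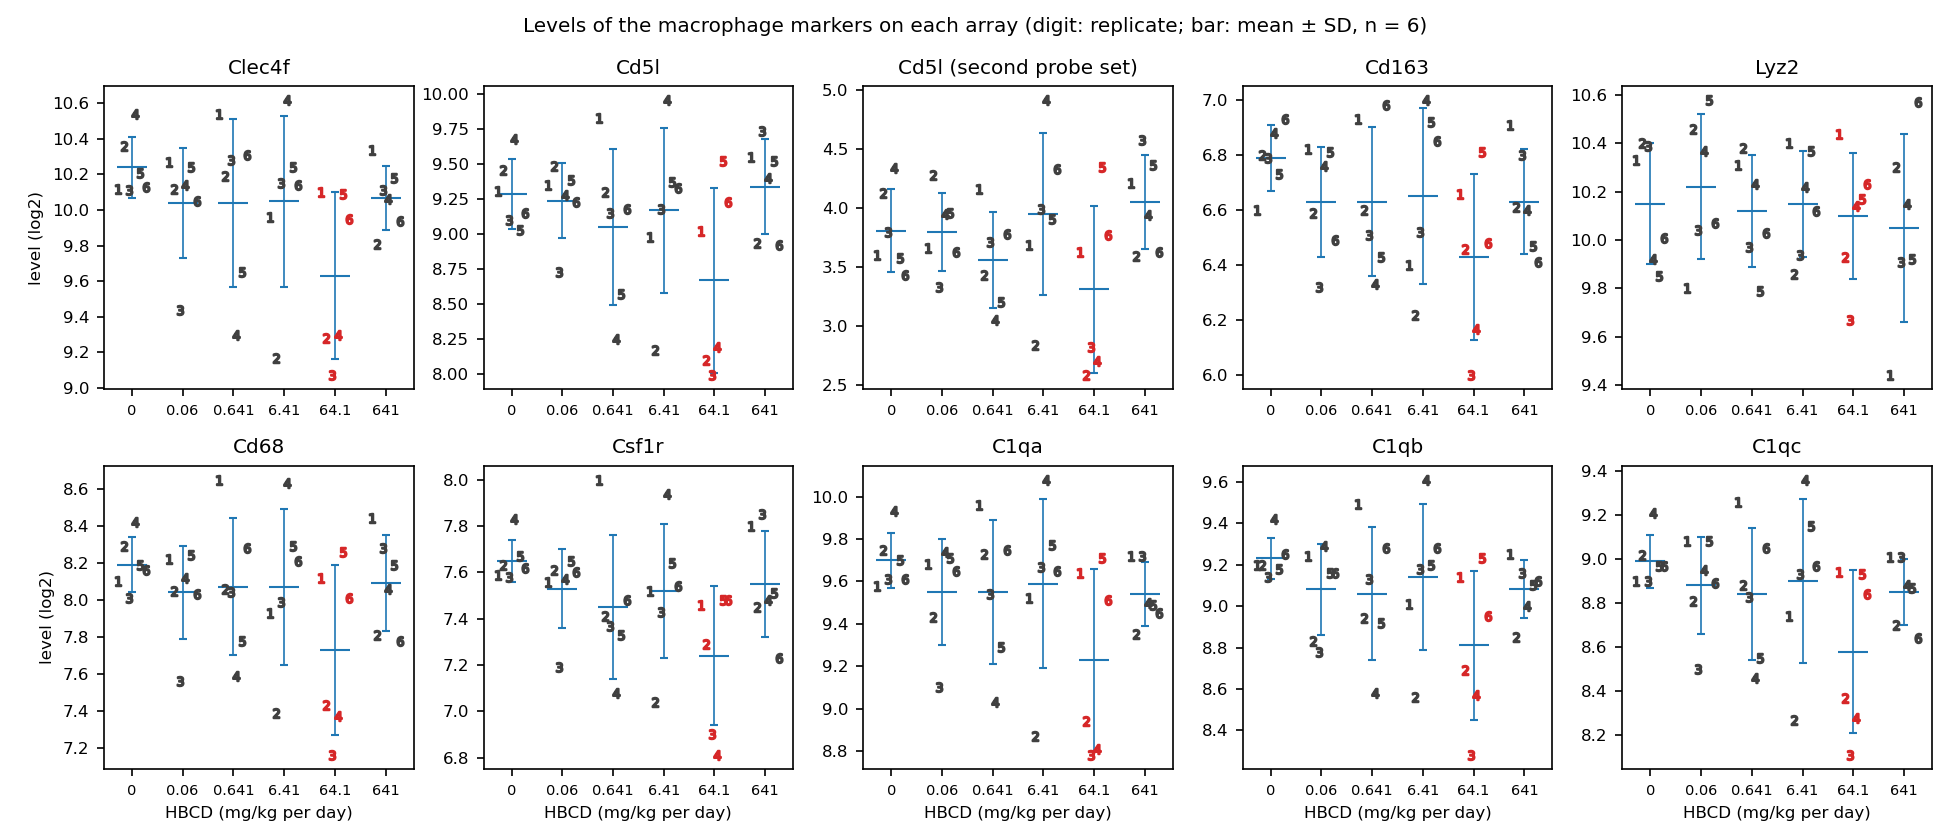
Level (log2, vertical axis) of each macrophage probe set on every array against the HBCD dose (mg/kg per day, 0 being vehicle); digits are replicate numbers, the 64.1 mg/kg arrays are red, and the bar is the mean ± SD of 6 arrays. Replicates 2, 3 and 4 at 64.1 mg/kg are the 3 lowest of their group in all 10 panels, and Clec4f there runs from 9.07 to 10.10 against 10.11 to 10.54 in vehicle.

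Cd5l, which encodes a secreted protein of tissue macrophages also known as AIM, ranged from 9.03 to 9.68 on the vehicle arrays with a median of 9.23, by its brighter probe set. The same probe set gave 9.02, 8.10, 7.99, 8.19, 9.52 and 9.23 on replicates 1 to 6 at 64.1 mg/kg. Replicates 5 and 6 lay within the vehicle range, replicate 1 just under it, and replicates 2, 3 and 4 at least 0.83 below the other arrays of their group. Its range was 8.92 to 9.74 with a median of 9.46 at 641 mg/kg, and the group overlapped vehicle. The dim second probe set gave 3.63, 2.58, 2.82, 2.70, 4.35 and 3.77 at 64.1 mg/kg against 3.43 to 4.34 in vehicle. Both probe sets placed the same 3 arrays lowest, although the dim one did so at levels where the background weighs more.

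Cd163 encodes the scavenger receptor for haptoglobin-bound haemoglobin. It ran from 6.60 to 6.93 in vehicle with a median of 6.79, and at 64.1 mg/kg it was 6.66, 6.46, 6.00, 6.17, 6.81 and 6.48 on replicates 1 to 6. Here replicate 2, at 6.46, was hardly below replicate 6, at 6.48, and the widest gap, of 0.29, lay above replicates 3 and 4. Cd163 ran from 6.41 to 6.91 with a median of 6.61 at 641 mg/kg. The 64.1 mg/kg group overlapped vehicle on replicates 1 and 5.

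Cd68, a glycoprotein of macrophage lysosomes, ran from 8.01 to 8.42 in vehicle with a median of 8.18. Its level was 8.12, 7.43, 7.16, 7.37, 8.26 and 8.01 on replicates 1 to 6 at 64.1 mg/kg. The 3 low arrays were set apart by a gap of 0.57, and the other 3 lay at or within the vehicle range. Cd68 ran from 7.78 to 8.44 with a median of 8.13 at 641 mg/kg. The spread in Cd68 at 64.1 mg/kg, an SD of 0.46, was 3.14 times that in vehicle.

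Csf1r, the receptor for the macrophage growth factors encoded by Csf1 and Il34, had the tightest vehicle group of these probe sets, from 7.58 to 7.83 with a median of 7.62 and a mean of 7.65 ± 0.09 (SD, n = 6). At 64.1 mg/kg it was 7.46, 7.29, 6.90, 6.81, 7.48 and 7.48 on replicates 1 to 6, a mean of 7.24 ± 0.30 (SD, n = 6). As with Clec4f, all 6 arrays lay below every vehicle array, and replicates 3 and 4 were the lowest. Across all probe sets tested, 0.168% had all 64.1 mg/kg arrays below every vehicle array, a total of 52, and 2 of the 10 macrophage probe sets were among them. Csf1r ran from 7.23 to 7.85 with a median of 7.50 at 641 mg/kg.

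C1qa, C1qb and C1qc encode the 3 chains of C1q, the recognition component of the classical complement pathway, which in liver is made chiefly by macrophages. C1qa ran from 9.58 to 9.93 in vehicle with a median of 9.65, and was 9.64, 8.94, 8.78, 8.81, 9.71 and 9.51 on replicates 1 to 6 at 64.1 mg/kg. C1qb ran from 9.14 to 9.42 in vehicle with a median of 9.20, and was 9.14, 8.69, 8.28, 8.57, 9.23 and 8.95 at 64.1 mg/kg. C1qc ran from 8.90 to 9.21 in vehicle with a median of 8.97, and was 8.94, 8.37, 8.11, 8.28, 8.93 and 8.84 at 64.1 mg/kg. The 3 chains thus had the same 3 low arrays, with gaps of 0.56 in C1qa and 0.47 in C1qc above them. In C1qb the widest gap, of 0.29, set replicate 3 alone apart. At 641 mg/kg the ranges were 9.35 to 9.72 for C1qa, 8.85 to 9.25 for C1qb and 8.64 to 9.01 for C1qc, each overlapping vehicle. For each chain, 4 of the 6 arrays at 641 mg/kg lay below every vehicle array, as was also the case for Clec4f and Csf1r. The share of all probe sets with 4 such arrays was not counted, so this describes these arrays only. At an unadjusted p under 0.05, 0 of the 10 probe sets differed from vehicle at 641 mg/kg, against 11.4% of all probe sets.

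Lyz2 encodes the lysozyme of macrophages, monocytes and granulocytes. It ran from 9.85 to 10.40 in vehicle with a median of 10.17, from 9.67 to 10.44 at 64.1 mg/kg with a median of 10.15, and from 9.44 to 10.57 at 641 mg/kg with a median of 10.03. The 64.1 mg/kg arrays gave 10.44, 9.93, 9.67, 10.14, 10.17 and 10.23 on replicates 1 to 6. As for the other probe sets, replicates 2, 3 and 4 were lowest, but replicate 4 lay only 0.03 below replicate 5. The group overlapped vehicle, with replicate 3 below every vehicle array and replicate 1 above every one.

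In all 10 probe sets replicates 2, 3 and 4 were the 3 lowest of the 6 arrays at 64.1 mg/kg, and in 6 of the 10 the widest gap between neighbouring arrays lay directly above them. Replicate 3 was the lowest array in 8 probe sets, replicate 2 in 1 and replicate 4 in 1. The probe sets were measured on the same arrays, so these counts are not independent of each other. Averaged over the 9 genes, with Cd5l by its brighter probe set, the difference from the vehicle mean was -0.08, -0.64, -0.92, -0.73, -0.00 and -0.17 on replicates 1 to 6. Replicate 3 at 64.1 mg/kg was therefore 1.89-fold below the vehicle mean, replicate 4 was 1.66-fold below it and replicate 2 was 1.56-fold below it, while replicate 5 lay at it.

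Low arrays of this kind were not confined to 64.1 mg/kg. On the same average, replicate 2 at 6.41 mg/kg was at -0.74, the second lowest of all 36 arrays, replicate 4 at 0.641 mg/kg at -0.60, replicate 3 at 0.06 mg/kg at -0.51 and replicate 5 at 0.641 mg/kg at -0.44. Each dose of 0.06 to 6.41 mg/kg had 1 or 2 arrays this low and 64.1 mg/kg had 3, whereas the 6 vehicle arrays stayed between -0.08 and 0.18 and those at 641 mg/kg between -0.27 and 0.04. The highest arrays were replicate 4 at 6.41 mg/kg, at 0.36, and replicate 1 at 0.641 mg/kg, at 0.30. Within a group the low array was mostly the same from gene to gene: replicate 3 at 0.06 mg/kg was the lowest in 9 of 10 probe sets, replicate 4 at 0.641 mg/kg in 9 and replicate 2 at 6.41 mg/kg in 10. At 641 mg/kg the lowest array was replicate 6 in 5 probe sets and replicate 2 in 4.

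**Figure D2:**
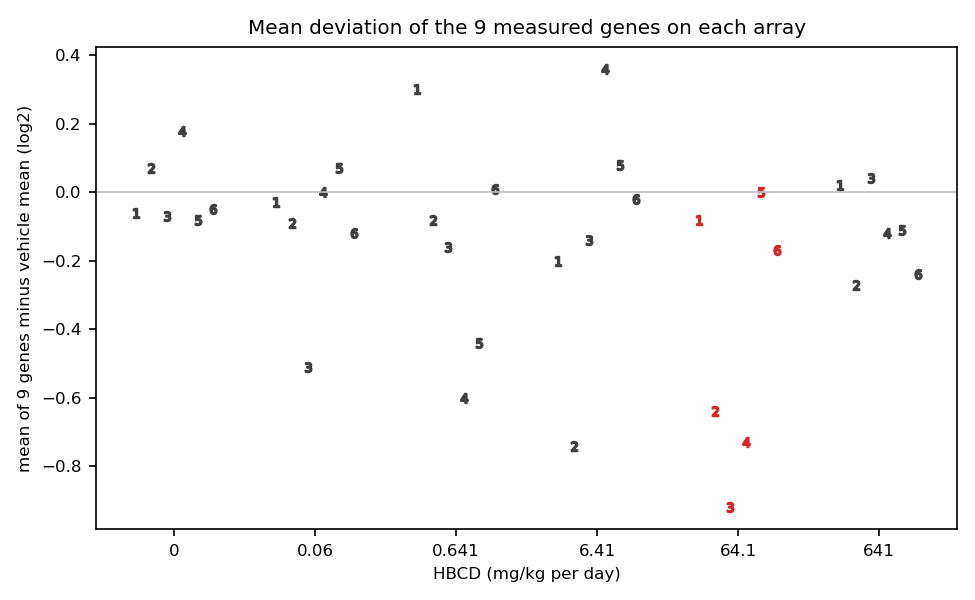
Mean difference from the vehicle mean (log2, vertical axis) over the 9 measured macrophage genes on each of the 36 arrays, against the HBCD dose (mg/kg per day, 0 being vehicle); digits are replicate numbers and the 64.1 mg/kg arrays are red. Replicates 2, 3 and 4 at 64.1 mg/kg lie between -0.64 and -0.92, and single arrays at 0.06, 0.641 and 6.41 mg/kg lie between -0.44 and -0.74.

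The typical spread between arrays of a group was larger for these genes at every dose than in vehicle, and largest at 6.41 and 64.1 mg/kg. The median SD over the 10 probe sets was 0.14 in vehicle, 0.25 at 0.06 mg/kg, 0.33 at 0.641 mg/kg, 0.385 at 6.41 mg/kg, 0.40 at 64.1 mg/kg and 0.21 at 641 mg/kg. Over all probe sets tested the median SD hardly varied between groups, from 0.128 to 0.138. In vehicle the typical macrophage probe set had a larger SD than 56.8% of all probe sets, and at 64.1 mg/kg a larger SD than 98.4%. The shares were 91.8%, 96.4%, 98.2% and 85.7% at 0.06, 0.641, 6.41 and 641 mg/kg. Both Cd5l probe sets (92.8% and 98%) and Lyz2 (92.9%) were already wide in vehicle. Lyz2 again stood apart, in that its SD hardly differed between vehicle (0.25) and 64.1 mg/kg (0.26), and was 0.39 at 641 mg/kg. These spreads are a description of the arrays, and no test of them was run.

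**Figure D3:**
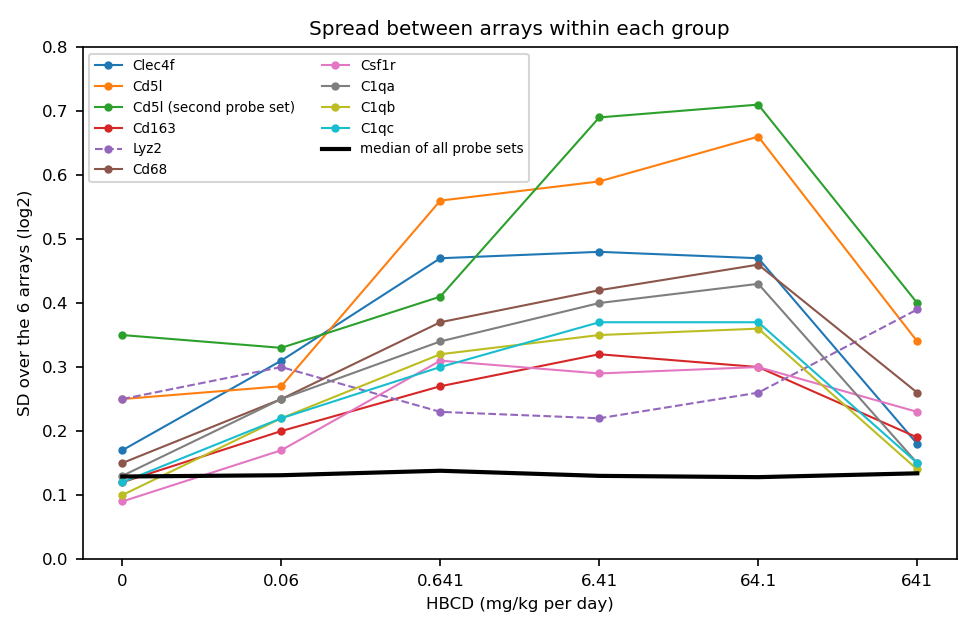
SD of the level over the 6 arrays of each group (log2, vertical axis) against the HBCD dose (mg/kg per day, 0 being vehicle), with 1 line for each macrophage probe set and a black line for the median of all probe sets tested. The median macrophage SD is 0.14 in vehicle and 0.40 at 64.1 mg/kg, while the black line stays between 0.128 and 0.138; Lyz2 is dashed.

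The comparison of each dose with vehicle asks which transcripts the exposure altered. At 64.1 mg/kg all 10 macrophage probe sets had a lower mean than in vehicle, with a median log2 difference of -0.44 against 0.00 over all probe sets, and none passed the test. Csf1r was 1.33-fold lower (95% CI 1.10 to 1.61; unadjusted p = 0.00393, limma adjusted p = 0.620) and Clec4f 1.53-fold lower (1.15 to 2.02; unadjusted p = 0.00424, limma adjusted p = 0.632). C1qb, C1qc and C1qa were 1.34-fold, 1.34-fold and 1.38-fold lower, with limma adjusted p-values of 0.658, 0.666 and 0.666. Cd163 was 1.28-fold lower (limma adjusted p = 0.690), Cd68 was 1.38-fold lower (0.700) and Cd5l 1.53-fold lower by the brighter probe set (0.729) and 1.42-fold by the other (0.871). Lyz2 was 1.04-fold lower (0.838-fold to 1.29-fold; limma adjusted p = 0.989).

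At an unadjusted p under 0.05, 8 of the 10 probe sets were lower at 64.1 mg/kg and none was higher, against 2.84% of all probe sets lower and 5.94% in either direction. The markers were chosen with earlier results of these data known, and most of them vary together on shared arrays. Counts of them, here and elsewhere, therefore describe this list and are no test of it. With limma's Benjamini-Hochberg adjustment over all 31042 probe sets, 0.0419% were called at this dose, 13 in all, and 0 of the 10. The result rests on the 3 low arrays: without replicate 3 alone the count at an unadjusted p under 0.05 was 5, and without replicates 2, 3 and 4 together it was 0, with a median log2 difference of -0.08. Those 3 arrays were picked because they were low, so the second value describes what the others hold and is no estimate of the effect of the dose.

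At 641 mg/kg, 10 times that dose, 8 of the 10 probe sets had a lower mean than in vehicle and the median log2 difference was -0.12. Clec4f differed by -0.17 (95% CI -0.58 to 0.24; limma adjusted p = 0.828), Csf1r by -0.10 (limma adjusted p = 0.858), and Cd5l by 0.06 and 0.24 in its probe sets (limma adjusted p = 0.964 and 0.819). With limma, 1.65% of all probe sets were called at this dose and 0 of the 10, and at an unadjusted p under 0.05 the shares were 11.4% of all probe sets and again 0 of the 10. In 9 of the 10 probe sets the lowest group mean was at 64.1 mg/kg, and in Lyz2 it was at 641 mg/kg, at 10.05 against 10.10.

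The contrast of 641 with 64.1 mg/kg was run directly, and it shares its 64.1 mg/kg arrays with the comparison to vehicle. Means were higher at 641 mg/kg in 9 of the 10 probe sets, with a median log2 difference of 0.31. Cd5l was 1.59-fold higher by the brighter probe set (95% CI 1.11 to 2.27; limma adjusted p = 0.400) and 1.67-fold by the dim one (limma adjusted p = 0.378), Clec4f 1.36-fold (limma adjusted p = 0.501) and Csf1r 1.24-fold (limma adjusted p = 0.465). None was called, against 0.242% of all probe sets with limma. At an unadjusted p under 0.05, 5 of the 10 were higher, against 4.45% of all probe sets higher and 9.15% in either direction. That count was 2 without replicate 3 or replicate 4 at 64.1 mg/kg or replicate 1 at 641 mg/kg, 3 without replicate 2 at 64.1 mg/kg or replicate 3 or 5 at 641 mg/kg, 8 without replicate 1 and 9 without replicate 5 at 64.1 mg/kg, and 0 without the 3 low arrays together.

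**Figure D4:**
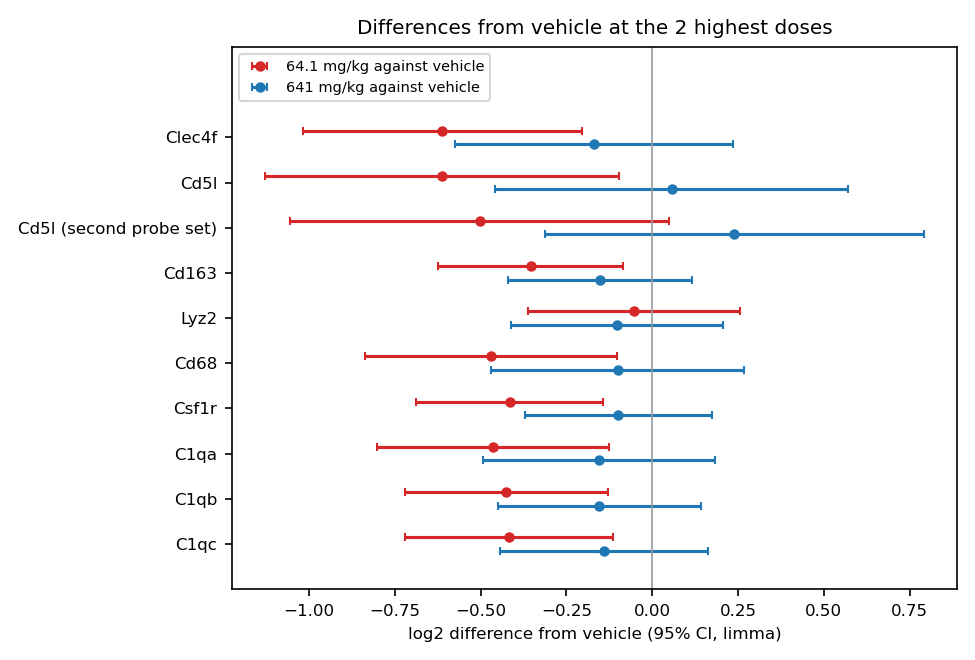
Difference from vehicle (log2, horizontal axis) with its 95% confidence interval from limma for each macrophage probe set at 64.1 mg/kg (red) and 641 mg/kg (blue); both doses are set against the same 6 vehicle arrays. All 10 red points lie below 0, Clec4f at -0.61 and Lyz2 at -0.05, and the blue points lie nearer to 0 in all but Lyz2; no point passed the test after adjustment.

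At the lower doses the means lay a little below vehicle. The median log2 difference over the probe sets was -0.11 at 6.41 mg/kg, -0.17 at 0.641 mg/kg and -0.13 at 0.06 mg/kg, with 8, 10 and 9 of the 10 below vehicle. These 3 comparisons share the vehicle arrays with each other and with the higher doses. In Clec4f the differences were -0.19, -0.20 and -0.20 in that order, and in Csf1r -0.14, -0.21 and -0.12. No probe set was called by limma in any of the 3, of the 10 or of all probe sets (0%), and at an unadjusted p under 0.05 the shares were 4.13%, 4.76% and 4.17% of all probe sets and 0 of the 10 each time. Single arrays carried the medians: at 6.41 mg/kg the median was 0.03 without replicate 2 and -0.20 without replicate 4, at 0.641 mg/kg it was -0.08 without replicate 4 and -0.25 without replicate 1, and at 0.06 mg/kg -0.05 without replicate 3.

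Over all doses together, limma's F test called 0 of the 10 probe sets, with adjusted p-values from 0.671 for Csf1r to 0.985 for Lyz2, and 0.773% of all probe sets. Unadjusted, its p was under 0.05 for 0 of the 10 and for 8.24% of all probe sets. The slope over dose ranks was called by limma for 0 of the 10 and for 1.35% of all. The 64.1 mg/kg mean was the lowest of the 6 groups in 9 of 10 probe sets, all but Lyz2, and the vehicle mean the highest in 7. Of the 50 pairs of neighbouring group means in these orders, 0 were further apart than their SDs.

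RNA quality was measured beside these values as the 3-prime minus the 5-prime level of control transcripts, which widens as RNA degrades. For Gapdh the 64.1 mg/kg arrays averaged -0.00 ± 0.07 against 0.00 ± 0.04 in vehicle (SD, n = 6 each; exact two-sided permutation p = 0.803). For actin they averaged 1.19 ± 0.12 against 1.17 ± 0.14 (SD, n = 6 each; exact two-sided permutation p = 0.805). Over the 10 such tests, 2 controls at 5 doses, the adjusted p was at least 0.931. Replicates 2, 3 and 4 at 64.1 mg/kg gave 0.06, -0.02 and -0.06 for Gapdh and 1.28, 1.16 and 1.19 for actin, all within the ranges of the other 64.1 mg/kg arrays, -0.10 to 0.08 and 1.00 to 1.35.

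The macrophage genes varied together between arrays. After each group's mean was subtracted, so that differences between dose groups were removed, the correlation of a gene with the mean of the others over 36 arrays was 0.96 for Clec4f (Spearman's rho 0.92), 0.94 for Cd5l (0.92), 0.85 for Cd163 (0.84), 0.97 for Cd68 (0.96) and 0.89 for Csf1r (0.87). For the C1q chains it was 0.97, 0.92 and 0.98 in C1qa, C1qb and C1qc. Over the 30 arrays outside 64.1 mg/kg the values were much the same, 0.95 for Clec4f, 0.94 for Cd5l, 0.83 for Cd163, 0.96 for Cd68, 0.90 for Csf1r and 0.97, 0.89 and 0.98 for the C1q chains. The covariation was thus present without the split group. Leaving out the 2 arrays farthest from the median left every one of these 36-array values at 0.81 or above. All genes of an array share its library, and the values are a description with no test.

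Lyz2 covaried less. Its correlation with the other genes was 0.19 over 36 arrays and 0.03 over the 30 arrays outside 64.1 mg/kg (rho 0.15 and -0.06). Among the 36 pairs of the other probe sets, C1q chains and both Cd5l probe sets included, the pairwise correlation over those 30 arrays ran from 0.70 to 0.97 with a median of 0.895. The 9 pairs with Lyz2 ran from -0.04 to 0.08. At 64.1 mg/kg alone, over 6 arrays, Lyz2 correlated at 0.79 with the rest.

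Among the 7410 other genes with a mean level of at least 6, those most like the macrophage markers in group-centred variation over 36 arrays were the chemokine gene Ccl6 (r = 0.98), the lysosomal protease gene Ctss (0.98), the Fc receptor chain gene Fcer1g (0.96), the phagocyte oxidase gene Cybb (0.96), Ly86 (0.95) and Anxa3 (0.95). Aif1 (0.94), the signalling adaptor gene Tyrobp (0.93), Pltp (0.93), the protease gene Lgmn (0.92), Ms4a6a (0.92) and Ms4a6bl1 (0.92) followed. Over the 30 arrays outside 64.1 mg/kg, which are among the 36 that chose them, the lowest of the 12 were Tyrobp and Ms4a6a at 0.91. In all, 22 genes exceeded 0.9 and 68 exceeded 0.8, and the median gene had 0.045. The most opposite genes were Map3k4 (-0.56), Ppdpf (-0.55), Thsd7a (-0.55), Ypel5 (-0.54) and Ptdss2 (-0.54).

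These 12 similar genes were also lower at 64.1 mg/kg, and none passed the test. They were picked on the same arrays for varying with the markers within groups, so this is not independent of the markers' own values. Ms4a6a was 2.00-fold lower (limma adjusted p = 0.666), Ccl6 was 1.58-fold lower (0.637), Ctss 1.47-fold (0.658), Ly86 1.42-fold (0.666) and Anxa3 1.40-fold (0.690). Tyrobp, at 1.35-fold lower, had the smallest adjusted p of the 12 (0.497). At 641 mg/kg their log2 differences from vehicle lay between -0.15 and -0.04, Ctss being at -0.15 and Lgmn at -0.04.

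Other genes that Kupffer cells express followed the same arrays more weakly. Of 15 further Kupffer-associated genes 10 were measured, with a median log2 difference of -0.12 at 64.1 mg/kg. At an unadjusted p under 0.05, 4 of the 10 were lower, against 2.84% of all probe sets. This list and those below were chosen with earlier results of these data known. The high-affinity IgG receptor gene Fcgr1a was 1.26-fold lower (limma adjusted p = 0.522), the folate receptor gene Folr2 1.22-fold lower (0.720) and the iron exporter gene Slc40a1 1.14-fold lower (0.720). On replicates 1 to 6 the list's mean differed from vehicle by -0.02, -0.19, -0.30, -0.41, -0.01 and -0.08. Some of these genes are also expressed by hepatocytes or endothelium.

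General macrophage genes were measured for 18 of 20, with a median difference of -0.27 at 64.1 mg/kg. The mean was lower than in vehicle for 15 of the 18. At an unadjusted p under 0.05, 9 of the 18 were lower, against 2.84% of all probe sets. Ctss and Ly86 are given with the similar genes, and Lgmn was 1.17-fold lower (limma adjusted p = 0.690). Cd14, Itgam and Ms4a7 had a slightly higher mean than in vehicle, by 0.05, 0.04 and 0.02 on the log2 scale. Itgam and Ms4a7 were dim, with mean levels of 3.70 and 4.26. The list's mean differed from vehicle by -0.06, -0.41, -0.55, -0.48, -0.05 and -0.05 on replicates 1 to 6 at 64.1 mg/kg. Its median correlation with the markers over the 30 arrays outside that group was 0.77, and 11 of the 18 genes exceeded 0.5. Replicates 2, 3 and 4 were low in this list as in the markers.

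Of 16 genes of Csf1r signalling and myeloid regulation, 13 were measured, 4 of them lower and 1 higher at 64.1 mg/kg at an unadjusted p under 0.05. Of all probe sets, 2.84% were lower at that threshold and 5.94% differed in either direction. Irf8, a transcription factor of the macrophage lineage, was 1.35-fold lower (unadjusted p = 4.56e-04, limma adjusted p = 0.343), and Tyrobp and Fcer1g were the next by p. Csf2rb, the beta chain of the GM-CSF receptor, was the higher one, at 1.14-fold (limma adjusted p = 0.690). It lies outside the rule for named genes and was chosen after its value was seen. The ligand genes Csf1 and Il34, also chosen afterwards, differed from vehicle by 0.04 and 0.00 (limma adjusted p = 0.989 and 0.998).

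The partners of C1q in the complement cascade did not follow it closely. Of 12 listed genes 8 were measured, with a median difference of -0.05 and a median correlation of 0.21 with the markers. C5 alone of the 8 was lower at an unadjusted p under 0.05 (1.14-fold, limma adjusted p = 0.658), against 2.84% of all probe sets. C1s was 1.06-fold lower (limma adjusted p = 0.933) and Masp2 differed by 0.07 (0.921). These genes are expressed mainly by hepatocytes. On the 64.1 mg/kg arrays the list's mean stayed between -0.13 and 0.01 of vehicle. Replicates 2, 3 and 4 were again the lowest of the group, at -0.13, -0.08 and -0.07, against -0.05 to 0.05 on the vehicle arrays. The split was thus present in this list, but small.

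Genes of lysosomes and scavenging, of macrophage activation and of recruited monocytes differed little at 64.1 mg/kg. Of all probe sets, 2.84% were lower there at an unadjusted p under 0.05 and 5.94% differed in either direction. Of 9 lysosomal and scavenger genes measured, Hmox1, the haem-degrading enzyme, was lower (1.25-fold, limma adjusted p = 0.637) and the protease gene Ctsd higher (log2 difference 0.13, limma adjusted p = 0.792) at an unadjusted p under 0.05. Of 13 activation genes only the chemokine gene Ccl4 was (1.15-fold lower, limma adjusted p = 0.703), and the median was -0.01. Il1b was 1.25-fold lower (limma adjusted p = 0.839) and Cd86 1.17-fold lower (0.918). Of 8 monocyte genes only the galectin gene Lgals3 was lower at that level (1.23-fold, limma adjusted p = 0.762), Cx3cr1 was 1.12-fold lower (0.877). Ccr2, a defining gene of recruited monocytes, had a level of 2.85, below every array median.

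From all these lists, 3 genes passed the test with limma in any comparison. All 3 did so at 641 mg/kg against vehicle, where 1.65% of all probe sets were called. Ctsd rose 1.21-fold (adjusted p = 0.00734), the fibronectin gene Fn1 fell by 0.22 on the log2 scale (adjusted p = 0.0252) and the T cell gene Cd8a fell by 0.66 (adjusted p = 0.0176). Fn1 is expressed by hepatocytes as well as macrophages, and Cd8a, with a mean level of 4.82, lay below the array medians. No member of the macrophage set was among them.

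Markers of other cell types were measured beside the macrophage genes, and their part in the result was not tested. Genes common to all leukocytes moved with the macrophage genes: all 8 were measured, 5 were lower at 64.1 mg/kg at an unadjusted p under 0.05, and the median was -0.27. The share of all probe sets lower at that threshold was 2.84%. Rac2 was 1.26-fold lower, Cd53 1.28-fold and Ptprc 1.30-fold (limma adjusted p = 0.690, 0.690 and 0.755). The mean of their log2 levels on each array ran from 6.79 to 7.14 in vehicle and from 6.51 to 6.79 at 64.1 mg/kg. Their median correlation with the markers over the 30 arrays outside 64.1 mg/kg was 0.81. The 64.1 mg/kg arrays differed from vehicle by -0.16, -0.37, -0.43, -0.34, -0.14 and -0.14 on replicates 1 to 6. Macrophages express most of these genes too, so this list does not separate them from other leukocytes.

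Of 13 T and NK cell genes, 9 had a lower mean at 64.1 mg/kg than in vehicle. The list means were 4.58 to 4.84 in vehicle and 4.38 to 4.62 at 64.1 mg/kg. At an unadjusted p under 0.05, 3 of the 13 were lower, against 2.84% of all probe sets. The leading ones were Cd8a (1.42-fold lower, limma adjusted p = 0.550), the chemokine gene Ccl5 (1.40-fold, 0.715) and the perforin gene Prf1 (1.30-fold, 0.812), and replicates 2, 3 and 4 were at -0.19, -0.14 and -0.30. All 5 dendritic cell genes measured had a lower mean, and 2 reached an unadjusted p under 0.05, Clec9a (1.30-fold, limma adjusted p = 0.690) and Irf7 (1.57-fold, 0.835), with the list at -0.30, -0.43 and -0.54 on the 3 low arrays. Irf7, an interferon-induced gene, is also made by macrophages. Of the 3 B cell genes measured, 2 had a lower mean and 0 reached an unadjusted p under 0.05, Cd22 being 1.04-fold lower (limma adjusted p = 0.967). The B cell list stood at -0.00, 0.08 and 0.08 on replicates 2, 3 and 4, the highest arrays of that group, and so did not show the split.

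Of 5 neutrophil genes measured, 4 had a lower mean at 64.1 mg/kg, 3 of them at an unadjusted p under 0.05, against 2.84% of all probe sets. The list lay below the vehicle mean on all 6 arrays. S100a9 was 1.41-fold lower, S100a8 1.29-fold and Csf3r 1.15-fold (limma adjusted p = 0.658, 0.725 and 0.754), and the list differed from vehicle by -0.13, -0.23, -0.17, -0.18, -0.18 and -0.30 on replicates 1 to 6. The list's median correlation with the markers over the 30 other arrays was -0.02. Its median level was 2.98, below every array median, so these genes may be near the background. The neutrophil list therefore did not show the low set of replicates 2, 3 and 4.

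Lists of non-blood cells and blood did not show replicates 2, 3 and 4 low together either. On those replicates the stellate and fibroblast list differed from vehicle by 0.02, -0.02 and -0.28. The cholangiocyte list differed by 0.25, -0.03 and -0.12 and the erythroid list by -0.03, -0.13 and -0.36. Replicate 4 was the lowest of its group in each of these lists. At an unadjusted p under 0.05, 0 of 8 endothelial, 0 of 9 stellate and fibroblast, 0 of 5 cholangiocyte and 0 of 11 hepatocyte genes were lower at 64.1 mg/kg. Of all probe sets 2.84% were, so counts of 0 in lists this short are near that share. Hepatocyte genes had a median difference of -0.01 and stood at -0.03, -0.09, -0.02, -0.01, -0.16 and 0.06 on replicates 1 to 6. At 641 mg/kg, 6 of the 11 were lower at an unadjusted p under 0.05, against 11.4% of all probe sets in either direction, and 0 were called. The list's mean level there was 12.88 to 13.02, against 13.08 to 13.16 in vehicle. The sinusoidal endothelium, which lies next to Kupffer cells, had a median of -0.03 and stood at 0.07, -0.14 and -0.10 on replicates 2, 3 and 4. At the same unadjusted threshold, Ahsp alone of the 4 erythroid genes was lower (1.17-fold, limma adjusted p = 0.819), and beta-globin Hbb was 1.21-fold lower (0.858). Of the 6 exocrine pancreas genes only Cel passed it, and was higher (log2 difference 0.18, limma adjusted p = 0.700).

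**Figure D5:**
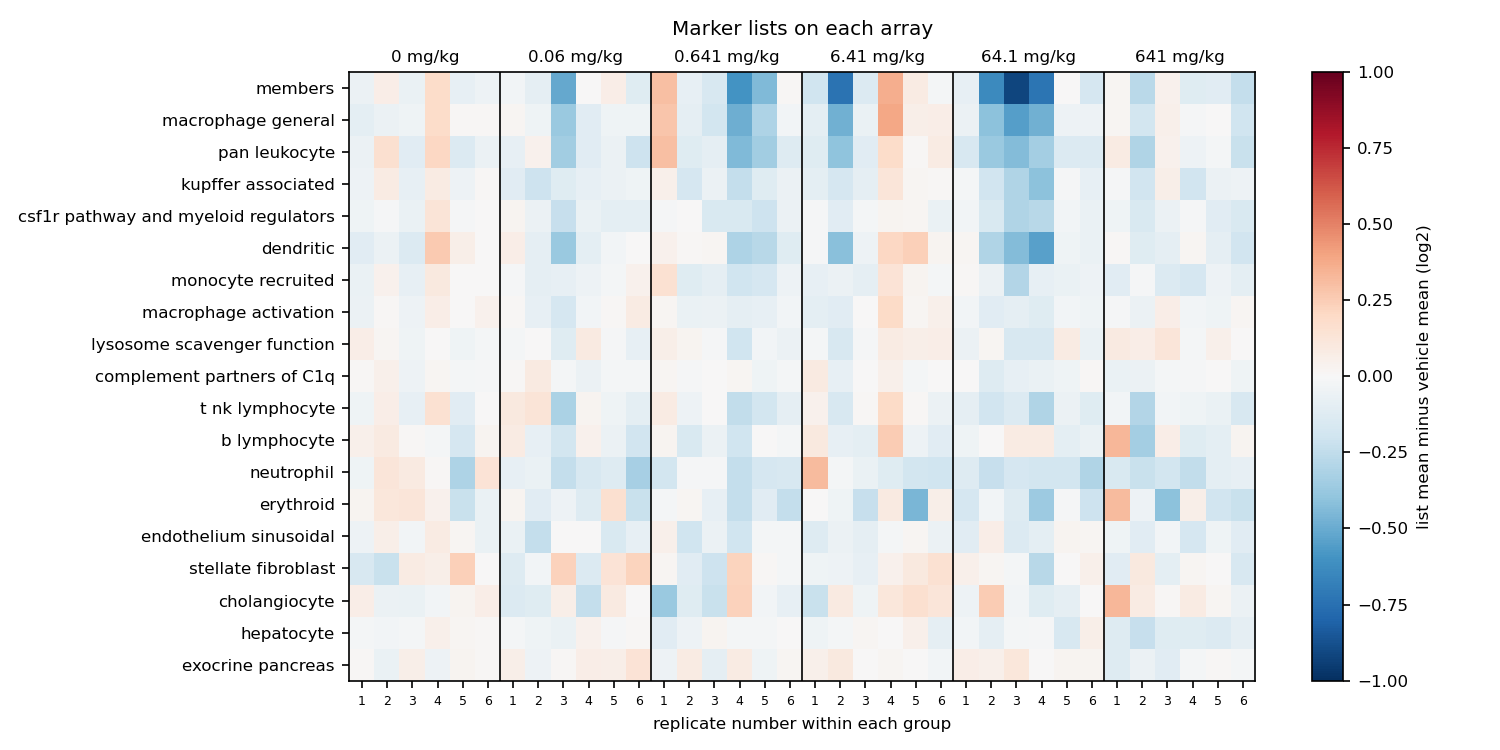
Mean difference from vehicle (log2, colour scale from -1 to 1) of each marker list (rows) on each array (columns, replicates 1 to 6 within each dose in mg/kg). The macrophage markers, general macrophage, pan-leukocyte and dendritic rows are blue on replicates 2, 3 and 4 at 64.1 mg/kg, the markers at -0.64, -0.92 and -0.73, while the hepatocyte row lies there between -0.01 and -0.09.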

How the data were processed

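Liver RNA from 36 arrays was analysed. The authors deposited log2 expression values per probe set, for which the submitters' processing notes name RMA and affy; versions are not given in the sources used here. RMA includes normalization between arrays, so a group-wide shift of most genes would be removed. The deposited values carry no detection calls, and precision is limited by the number of arrays. Of the probe sets 57 controls were dropped and 31042 tested, of which 20826 had 1 gene symbol, 436 several and 9780 none. Probe sets with several symbols were assigned to no gene. The series design text names R/maanova. Here limma 3.58.1 in R 4.3.3 fitted 1 mean per group over all 36 arrays, with two-sided tests, Benjamini-Hochberg adjustment over all probe sets and calls at an adjusted p under 0.05. The step was tested on simulated data. A gene outside the 10 is represented by its brightest probe set. Named genes are the 10 markers, the 12 most and 5 least similar genes, and per list those called in any contrast or else up to 3 with the smallest p at 64.1 mg/kg. Ccr2, Lgals3, Cx3cr1, Hmox1, Ccl5, Prf1, Csf2rb, Csf1, Il34, Cd14, Itgam and Ms4a7 fall outside this rule and were chosen after their values were seen. The markers, lists and tests were chosen with earlier results of these data known. Promoters came from RefSeq, assembly GRCr8. Alternatives covered normalization, filter, variance model, array weights, groups fitted, adjustment, probe sets of a gene, the replicate number and left-out arrays.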

Additional observations from a re-analysis of the deposited data

Results flagged for a closer look

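In 60 sets of 6 arrays, 10 probe sets in 6 groups, the highest or lowest array was set against the others, and 5 sets had 1 array whose gap to the nearest was over 0.625 of the whole range. Chance gives about 1 such set in 20. Replicate 3 at 0.06 mg/kg was the low array in 4 of them: Clec4f was at 9.44 there with the next array at 10.05, Cd5l at 8.73 with the next at 9.23, Cd68 at 7.56 with the next at 8.03, and Csf1r at 7.19 with the next at 7.56. The gap was 0.740, 0.660, 0.691 and 0.797 of the range in that order. In vehicle, replicate 4 was high for Csf1r at 7.83, with the next array at 7.67 and a gap of 0.653 of the range. The probe sets share libraries, so the 4 sets with the same low array are not independent. The low arrays at 64.1 mg/kg were not singled out by this measure, since 3 of 6 lay low together.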

How the results depend on the processing

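No macrophage probe set was called under any of the 47 alternatives. Without the 3 low arrays together, the difference at 64.1 mg/kg was 0.13 for Lyz2 and 0.11 for the dim Cd5l probe set and stayed below 0 for the other 8. At 64.1 mg/kg against vehicle, with 13 probe sets called in all, the count was 28 with the filter at 6 (brighter than that in at least 1 group mean), 24 with trend and robust moderation, 5 with only the 2 groups fitted, 20 with the 5 dose contrasts adjusted together, 3 without replicates 2, 3 and 4 together, and 8 to 18 with single arrays left out (8 without vehicle replicate 3 or 64.1 mg/kg replicate 4). The median log2 difference of the markers ranged from -0.534 to -0.352 with single arrays left out, and was -0.0833 without the 3 low arrays. At 641 against 64.1 mg/kg (75 called), the count was 35 with only the 2 groups fitted, 25 without the 3 low arrays and 32 to 95 with single arrays left out, the lowest without 641 mg/kg replicate 2. The markers' median there was 0.228 to 0.384 with single arrays left out and -0.0211 without the 3. The markers' count at an unadjusted p under 0.05 was 3 with the filter at 6 or with 1 value per gene, against 5. At 641 mg/kg against vehicle (511 called), the count was 327 with only the 2 groups fitted, 225 with contrasts adjusted together and 335 to 507 with single arrays left out, the lowest without 641 mg/kg replicate 2. Contrasts adjusted together gave 1 call at 6.41 mg/kg and 2 at 0.641 mg/kg. The F test (240 called) gave 374 with the filter at 6 and 154 to 258 with single arrays left out, the lowest without 641 mg/kg replicate 2. The slope (418 called) gave 653 with the filter at 6, 274 without the 3 low arrays and 316 to 428 with single arrays left out. The slope's p was under 0.05, unadjusted, for 0 markers, and for up to 3 with single arrays left out (without 64.1 mg/kg replicate 5). Apart from fewer probe sets or arrays, the cause of these moves was not tested. With the replicate number as a block, 0 macrophage probe sets were called and the count at 64.1 mg/kg was 12 probe sets in all. The markers' median was -0.444 as before, which the design fixes, since each group holds each number once. Same-numbered arrays of different groups correlated at -0.252 to 0.321 over 90 pairs, 14 of them over 0.1, and 6 of 36 arrays correlated best with their own number, so the numbers were not taken to pair the samples. The dim Cd5l probe set and most neutrophil genes lay under the array medians, and signal over background limits what they show.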
